A study of Mus musculus with 6 samples.

Results

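MiR-212 and miR-132 are made from neighbouring hairpins, and both arms of each hairpin were followed here in primary mesangial cells of the mouse, untreated or given the cytokine TGF-β1 (transforming growth factor β1). The members were the rows of the expression table for the hairpins miR-132 and miR-212, which gave 4 mature miRNAs (mmu-miR-132-3p, mmu-miR-132-5p, mmu-miR-212-3p and mmu-miR-212-5p) of the 778 listed; the species prefix is left out from here on. All 4 were detected in each of the 6 libraries, and all 4 passed the filter on low values that left 408 miRNAs for testing. There were 3 libraries of Control cells and 3 of TGF-b1 cells, the latter kept for 72 h with TGF-β1 at 10 ng/ml. Cells of both groups were mouse primary mesangial cells between passages 3 and 6 in medium with 25.5 mM glucose and 20% foetal bovine serum. The methods of the study describe the samples as collected in triplicate. Neither they nor the labels say whether the 3 libraries of a group came from separate cultures. The p-values therefore measure the spread between these libraries, which may be technical.

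A miRNA hairpin is cut into a short duplex, and one strand is loaded into an Argonaute protein, where bases 2 to 8 (the seed) pair with target mRNAs. The miR-212 and miR-132 hairpins are known to be transcribed together, and in neurons their transcription follows CREB, a factor activated by cAMP, calcium and growth factor signals. The 3p arm is generally regarded as the guide strand of both hairpins. Mesangial cells hold the capillary loops of the kidney glomerulus together, and TGF-β1 is the main cytokine of kidney fibrosis.

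The 4 mature sequences are shown because the seeds decide which members could act on the same mRNAs. They are taken from RefSeq (GRCm38.p6 table), where 4 of the 4 names matched, and read 5′ to 3′ with the seed in capitals.
miR-212-5p: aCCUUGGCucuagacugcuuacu
miR-212-3p: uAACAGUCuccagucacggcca
miR-132-5p: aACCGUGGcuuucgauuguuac
miR-132-3p: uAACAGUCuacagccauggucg
The 3p arms shared the seed AACAGUC, and in the RefSeq list these were the only 2 of its 1679 mature names that carried it. They were identical at 17 of 22 positions. Counted from the 5′ end, with the base of miR-132-3p first, the differences were A10C, C14U, U17C, U20C and G22A, all of them after the seed. The seeds of miR-212-5p (CCUUGGC) and miR-132-5p (ACCGUGG) were each carried by 1 name. The 5p arms began with A and the 3p arms with U.

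The hairpins are shown whole, with both mature arms in capitals, because the 2 hairpins used opposite arms in these cells.
Mir212: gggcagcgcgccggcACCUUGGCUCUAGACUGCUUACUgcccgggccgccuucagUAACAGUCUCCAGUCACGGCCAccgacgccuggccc
Mir132: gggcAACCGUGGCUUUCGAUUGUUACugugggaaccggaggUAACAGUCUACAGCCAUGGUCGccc
In the NCBIM37 mouse genome, the build used for the study's RNA reads (mm9), these sequences matched the plus strand at chr11:74986890-74986980 for Mir212 and at chr11:74987184-74987249 for Mir132, with 203 bases between them. MiR-212-5p lies at chr11:74986905-74986927, miR-212-3p at chr11:74986945-74986966, miR-132-5p at chr11:74987188-74987209 and miR-132-3p at chr11:74987225-74987246. Both hairpins fall in the first intron of 1700016P03Rik, a long non-coding RNA gene of 3 exons on the same strand, at chr11:74986062-74991135 in GENCODE vM1. They start 828 and 1122 bases after its annotated start, before exon 2. The nearest protein-coding genes are Hic1, 3869 bases before the cluster, and Ovca2, 2177 bases after it, both on the minus strand, counted to the annotated end of Mir132 at 74987267.

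**Figure D1:**
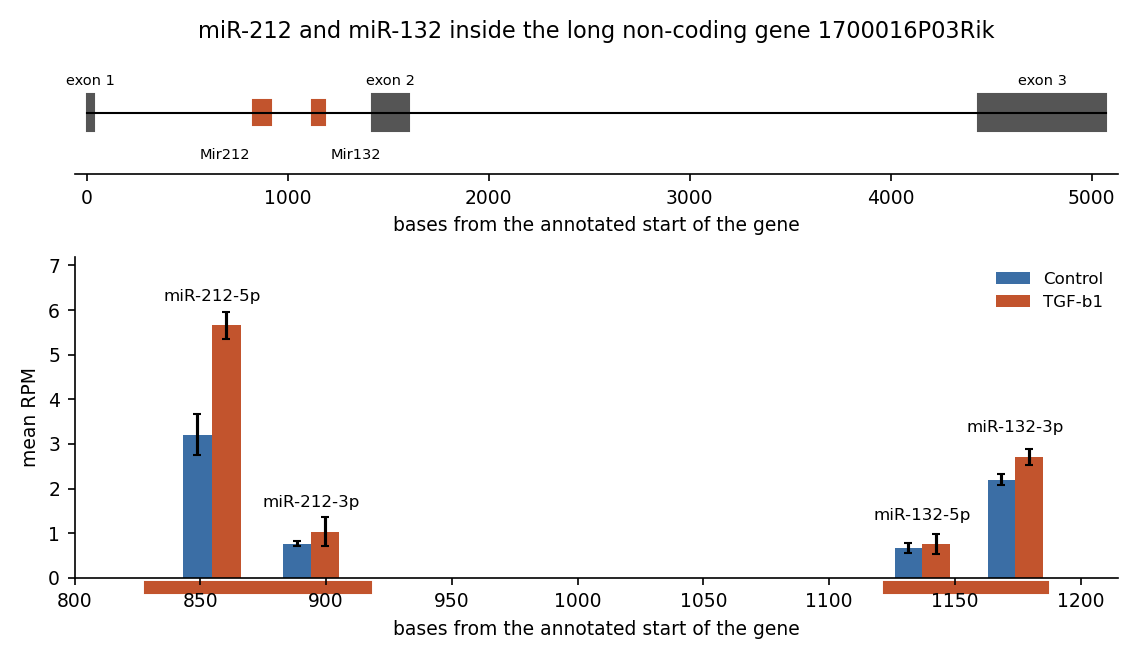
The upper panel maps exons (grey) and hairpins (orange) of 1700016P03Rik by distance in bases from its annotated start, and the lower panel enlarges the hairpins with the mean RPM of each arm in Control (blue) and TGF-b1 (orange), with error bars of 1 SD (n = 3 libraries each). MiR-212-5p has the tallest bars, 3.21 RPM in Control and 5.66 in TGF-b1, and in Mir132 the taller bars are those of the 3p arm.

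The window around the annotated start of 1700016P03Rik, 250 bases before to 50 after (NCBIM37, plus strand, chr11:74985812-74986111), is shown because the 4 members lie downstream of it on 1 strand.
Start of 1700016P03Rik: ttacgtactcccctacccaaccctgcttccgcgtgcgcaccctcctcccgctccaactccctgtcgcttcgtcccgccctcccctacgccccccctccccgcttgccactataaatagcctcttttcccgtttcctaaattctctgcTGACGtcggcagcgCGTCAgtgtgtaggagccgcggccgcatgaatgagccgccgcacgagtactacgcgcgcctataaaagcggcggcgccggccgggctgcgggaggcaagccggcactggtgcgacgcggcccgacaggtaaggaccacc
Capitals mark TGACG, the short core of the cAMP response element that CREB binds, which was found 103 bases before the start on the plus strand and 89 bases before it on the minus strand. Among 32851 windows of 300 bases at RefSeq gene starts (GRCm38.p6), 20.8% held at least 1 TGACG on either strand and 5.01% held at least 2. The full element TGACGTCA, which contains TGACG, was not found here and was in 1.79% of windows. Neither the AP-1 motif TGANTCA (7.81% of windows) nor CAGAC (49.6%), the core of Smad-binding CAGA boxes, was found. TATAAA was found 29 and 141 bases before the start, and 13.6% of windows held it. Such matches describe the letters of this window and not binding.

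Library totals, recovered from the deposited values, were between 16478281 and 20169254 reads, so that 1 read was worth between 0.0496 and 0.0607 RPM (reads divided by the library total and multiplied by 1000000). Reads outside the 778 rows made up 20.4% ± 0.142 of the total over the 3 Control libraries and 27.7% ± 0.752 over the 3 TGF-b1 libraries (SD). These shares are too low where reads were counted in several rows, since some rows hold the same values in every library. Of the 5 mesenchymal markers, which summed to 2587 to 2962 RPM in Control and 2609 to 3075 RPM in TGF-b1, the most abundant, miR-143-3p, stood at 2029 ± 125 RPM over the 3 Control libraries and 2052 ± 258 over the 3 TGF-b1 libraries (SD). MiRNAs of endothelial cells (2 listed) summed to at most 0.298 RPM in any library, and those of blood cells (3 listed) to at most 0.659. Muscle markers (3 listed) summed to 3440 to 3646 RPM in Control and 3285 to 3465 RPM in TGF-b1, more than the mesenchymal markers. Neuronal and epithelial markers, and the changes of single markers, are given below.

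All 4 members were low in these cells. MiR-212-5p ranked 236, miR-132-3p 296, miR-212-3p 371 and miR-132-5p 388 among the 778 miRNAs by their mean over the 6 libraries. In both groups the order of levels was miR-212-5p, miR-132-3p, miR-212-3p and miR-132-5p. MiR-212-5p lay above miR-132-3p in 3 of 3 libraries of each group without overlap, and so did miR-132-3p above miR-212-3p. MiR-212-3p and miR-132-5p overlapped in both groups, and their order cannot be told from these libraries. Levels in RPM count reads of molecules of nearly equal length (22 or 23 bases), but ligation and amplification differ between sequences, which RPM does not correct.

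MiR-212-5p was the only member called, as higher in TGF-b1. It had 2.73, 3.66 and 3.23 RPM in Control replicates 1 to 3 (45, 61 and 57 reads) and 6.00, 5.47 and 5.50 RPM in TGF-b1 replicates 1 to 3 (121, 98 and 94 reads). Each TGF-b1 library thus lay above each Control library, as was true of 20.8% of tested miRNAs. The means were 3.21 ± 0.463 RPM over the 3 Control libraries and 5.66 ± 0.297 over the 3 TGF-b1 libraries (SD), a ratio of 1.76. On log2(RPM + 1) the change was 0.67 ± 0.14 (SE) with a 95% interval from 0.34 to 0.99, and the limma adjusted p over the 408 miRNAs was 0.00584. This was past the adjusted threshold but, on this scale, not past an absolute log2 change of 1. Both were passed by 12.3% of tested miRNAs. With DESeq2 the log2 change of miR-212-5p was 1.04. Among all tested miRNAs 49.3% had an adjusted p under 0.05, 17.4% as higher and 31.9% as lower, so 1 called member of 4 does not stand apart from that background. By the size of its rise on log2(RPM + 1) miR-212-5p stood at place 41 among the 71 higher calls.

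MiR-132-3p, the arm best known from neurons and from CREB signalling, did not pass the test. Its Control libraries had 2.18, 2.10 and 2.33 RPM (36, 35 and 41 reads) and its TGF-b1 libraries 2.53, 2.90 and 2.69 RPM (51, 52 and 46 reads). The groups did not overlap, as was true of 56.9% of the tested miRNAs. The gap between the highest Control and the lowest TGF-b1 library was narrower than the exact 95% Poisson interval of either, which ran from 1.67 to 3.16 RPM and from 1.88 to 3.32 RPM. Such intervals hold counting error alone, because amplified reads are not separate molecules. The log2 change was 0.21 ± 0.12 (SE) with a 95% interval from -0.07 to 0.49 (limma adjusted p = 0.194). The interval leaves room for a rise of up to 0.49 on this scale, so equal levels were not shown either.

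MiR-212-3p, which shares the seed of miR-132-3p, had 0.728, 0.839 and 0.738 RPM in Control replicates 1 to 3 and 0.843, 0.837 and 1.40 RPM in TGF-b1 replicates 1 to 3. TGF-b1 replicate 3 (24 reads) stood above the rest, while the other TGF-b1 libraries (17 and 15 reads) were at the level of Control replicate 2 (14 reads). Its log2 change of 0.19 ± 0.14 (SE, 95% interval -0.14 to 0.52) had a limma adjusted p of 0.310, and without TGF-b1 replicate 3 it was 0.058. MiR-132-5p, the passenger arm, had 0.789, 0.659 and 0.567 RPM in Control and 0.942, 0.502 and 0.819 RPM in TGF-b1, and the groups overlapped. With 9 to 19 reads a library its log2 change was 0.06 ± 0.14 (SE, 95% interval -0.25 to 0.38), the limma adjusted p was 0.717, and without TGF-b1 replicate 1 the change was -0.014.

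**Figure D2:**
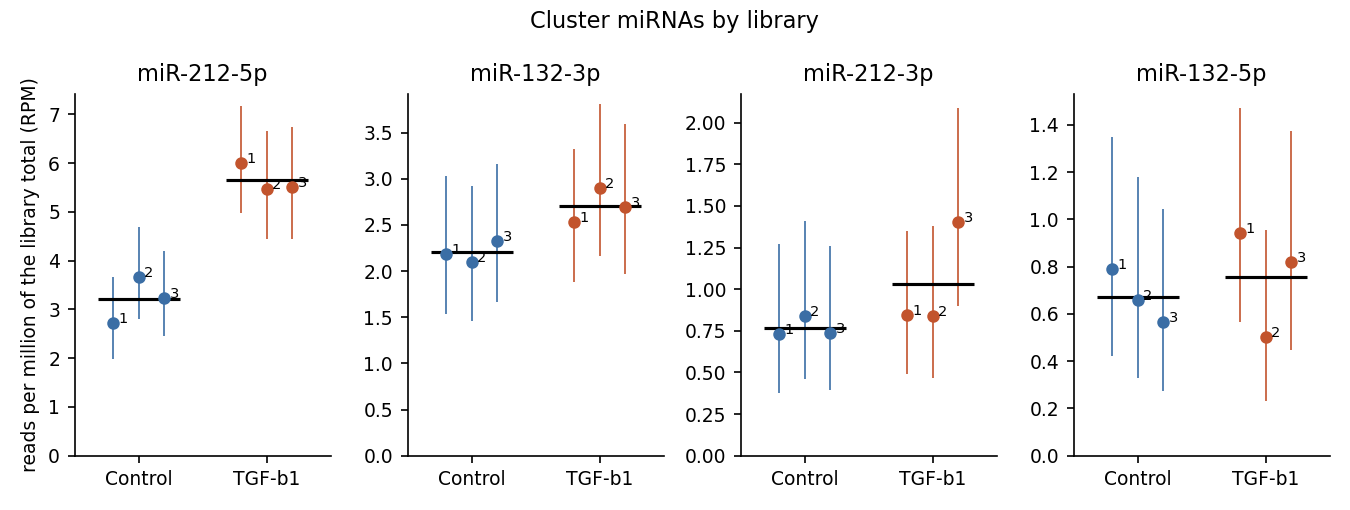
RPM of each member in each library (points, numbered by replicate) with exact 95% Poisson intervals for counting error (vertical lines) and group means (black bars), each panel with its own axis from 0. The 3 TGF-b1 libraries of miR-212-5p, 5.47 to 6.00 RPM, lie above its Control libraries, while the points of miR-132-5p are mixed between the groups.

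The changes are on the scale of log2(RPM + 1), where a change at a level of a few RPM or less comes out smaller than its plain ratio. For miR-212-5p the log2 ratio of means was 0.82 against a fitted 0.67, and for miR-132-3p 0.30 against 0.21. By the ratio of group means the members stood at 1.76 for miR-212-5p, 1.34 for miR-212-3p, 1.23 for miR-132-3p and 1.12 for miR-132-5p. All 4 fitted changes were above 0, where 37% of tested miRNAs were, and the median of the 408 was -0.17. Relative to that median miR-212-5p was higher by 0.84 and miR-132-3p by 0.38. The split of calls into 71 higher and 130 lower also moved with the scaling, to 97 higher and 91 lower with median of ratios. When scaled to the sum of the listed reads, miR-212-5p changed by 0.82 on the log2 scale (limma adjusted p = 0.00337). On that scaling the log2 changes of miR-132-3p, miR-212-3p and miR-132-5p were 0.33, 0.29 and 0.14, and none passed (limma adjusted p = 0.0745, 0.185 and 0.523). On the recovered reads the log2 change of miR-212-5p was 0.97 with edgeR (adjusted p = 0.00296) and 1.04 with DESeq2 (adjusted p = 0.00189). For miR-132-3p, miR-212-3p and miR-132-5p the log2 changes were 0.45, 0.55 and 0.33 with edgeR. With DESeq2 they were 0.51, 0.62 and 0.38, and none of them passed by either tool.

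**Figure D3:**
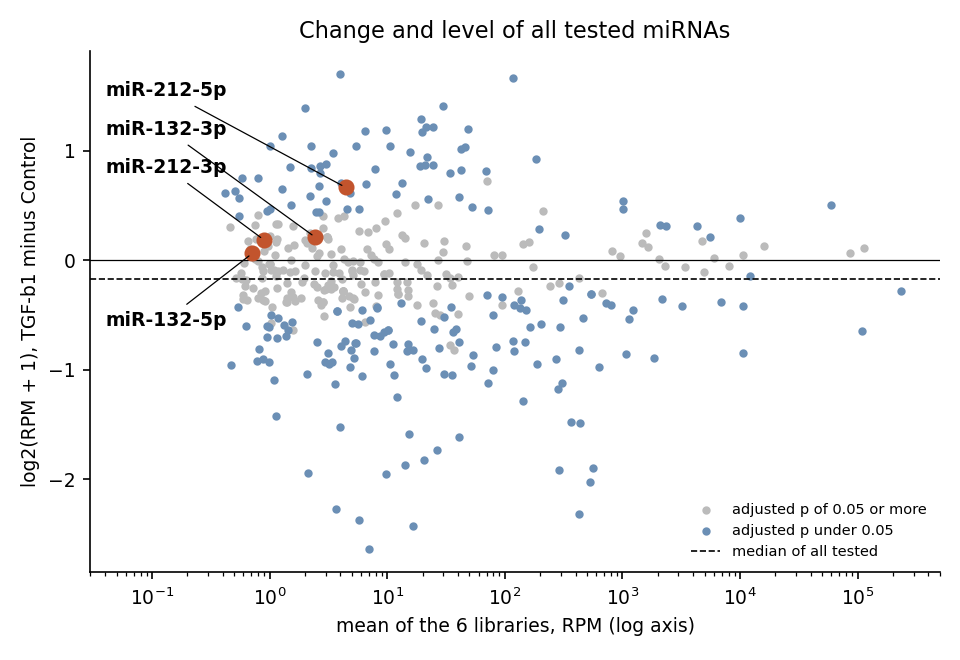
Mean RPM over the 6 libraries (log axis) against the change of log2(RPM + 1) for the 408 tested miRNAs, blue where the limma adjusted p was under 0.05, with the 4 members in orange and the median change of -0.17 dashed. MiR-212-5p lies at 0.67 among many higher miRNAs of its level, and the other members lie between the dashed line and 0.21.

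The hairpins used opposite arms. In miR-212 the 5p arm took 78.9%, 81.3% and 81.4% of the hairpin's reads in Control replicates 1 to 3 and 87.7%, 86.7% and 79.7% in TGF-b1 replicates 1 to 3. In miR-132 it took 26.5%, 23.9% and 19.6% in Control and 27.1%, 14.8% and 23.3% in TGF-b1. No library of miR-212 lay below 78.9% and none of miR-132 above 27.1%, so the most read arm was 5p in the former and 3p in the latter in 6 of 6 libraries. The exact 95% binomial intervals of single libraries were wide, from 66.1% to 88.6% for miR-212 in Control replicate 1 (57 reads). Among 103 hairpins with both arms tested, the 5p arm had the higher mean in 51 (49.5%).

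**Figure D4:**
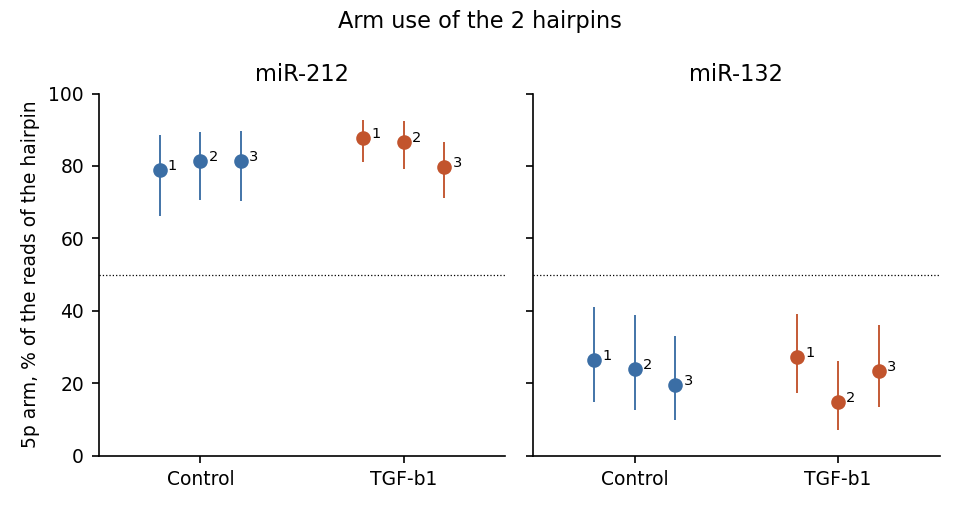
Share of each hairpin's reads in its 5p arm, in percent, for each library (points, numbered by replicate) with exact 95% binomial intervals and a dotted line at equal use. All points of miR-212 lie between 78.9% and 87.7% and all points of miR-132 between 14.8% and 27.1%.

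The arm balance of miR-212 did not pass the test of a difference between the groups. Log2 ratios of arms were taken after adding 1 RPM to each arm, which makes them smaller in size than the plain ratios at these low levels. So taken, the log2 ratio of miR-212-3p to miR-212-5p was -1.25 ± 0.12 over the 3 Control libraries and -1.73 ± 0.257 over the 3 TGF-b1 libraries (SD), a difference of -0.48 ± 0.19 (SE, 95% interval -0.91 to -0.05). The limma adjusted p over the 103 hairpins was 0.0890, where 27.2% of hairpins had one under 0.05. With 0.1 RPM added instead, the difference was -0.465 (limma adjusted p = 0.267), and with 10 RPM it was -0.212 (limma adjusted p = 0.0526). Without TGF-b1 replicate 3, the library with most miR-212-3p reads, the difference was -0.63 and the adjusted p 0.0406. The share of 5p reads in miR-212 overlapped between the groups (exact two-sided permutation p = 0.3, n = 3 each). For miR-132 the log2 ratio of 3p to 5p differed by 0.15 ± 0.24 (SE, 95% interval -0.39 to 0.68, limma adjusted p = 0.698), and the share of 5p reads had an exact permutation p of 0.8 (n = 3 each).

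The sum of the 4 members was 6.43 to 7.25 RPM in the Control libraries and 9.71 to 10.4 RPM in the TGF-b1 libraries, with means of 6.85 ± 0.411 and 10.1 ± 0.38 (SD, 3 libraries a group). Most of the difference of 3.30 RPM lay in the miR-212 hairpin, which went from 3.98 ± 0.518 to 6.69 ± 0.328 RPM, against 2.87 ± 0.109 to 3.46 ± 0.0536 RPM for miR-132 (SD, 3 libraries a group). The difference of the sum was 4.18 RPM with TMM and 5.43 RPM with the listed reads as the total. MiR-212-5p made up 46.7% ± 4.0 of the cluster's reads over the 3 Control libraries and 55.8% ± 2.72 over the 3 TGF-b1 libraries (SD). The arms with the seed AACAGUC summed to 2.91 to 3.06 RPM in Control and 3.37 to 4.10 RPM in TGF-b1. The sums rest on members already described and carry no test.

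Ratios between the hairpins were compared for the arms that share a seed and for the most read arm of each hairpin, and neither passed. These ratios too were taken after adding 1 RPM to both values, so they are smaller in size than the plain ratios. The log2 ratio of miR-132-3p to miR-212-3p was 0.86 ± 0.0948 over the 3 Control libraries and 0.88 ± 0.239 over the 3 TGF-b1 libraries (SD). The difference was 0.024 (exact two-sided permutation p = 0.8). The Benjamini-Hochberg adjusted p was 0.8 over 4 permutation comparisons, namely these ratios and the shares of 5p reads in both hairpins. The sign of the difference turned with a pseudocount of 0.1. It also turned when Control replicate 2, TGF-b1 replicate 1 or TGF-b1 replicate 2 was left out. The log2 ratio of miR-212-5p to miR-132-3p, a comparison chosen after the values were seen, was 0.39 ± 0.183 over the 3 Control libraries and 0.84 ± 0.132 over the 3 TGF-b1 libraries (SD). The groups did not overlap. Its p of 0.1 (exact permutation, two-sided, n = 3 each) is the smallest that 3 against 3 libraries can give. After adjustment over the 4 comparisons it was 0.4.

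The profile most like that of miR-132-3p over the 6 libraries, by the root mean square difference of log2(RPM + 1) after subtracting each miRNA's mean, was that of miR-148b-5p (0.0474), followed by miR-1966 (0.062) and let-7f-5p (0.0633). None of these 3 passed the test (limma adjusted p = 0.264, 0.282 and 0.0845). MiR-212-5p was closest to miR-665-3p (0.0602), miR-452-5p (0.0764) and miR-329-5p (0.0821), a search added after the values were seen. Their log2 changes were 0.75, 0.58 and 0.65, values that the choice by likeness to miR-212-5p fixes and that carry no test. MiR-665-3p (17 reads in Control, 69 in TGF-b1) passed the filter on low values only through its TGF-b1 libraries. MiR-665 and miR-329 come from the imprinted Dlk1-Dio3 region.

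Within 1 Mb of the cluster the annotation held 1 other named miRNA gene, Mir22, 289951 bases after the annotated end of Mir132 at chr11:75277218-75277312. MiR-22-5p averaged 17.6 ± 1.23 RPM over the Control and 26.6 ± 5.36 RPM over the TGF-b1 libraries (SD), and it rose by 0.56 ± 0.16 on the log2 scale (SE; limma adjusted p = 0.0223). MiR-22-3p, the more abundant arm, averaged 180 ± 35.8 RPM and 244 ± 28.2 RPM (SD). Its log2 change of 0.45 ± 0.16 (SE) did not pass (limma adjusted p = 0.0516). EdgeR and DESeq2, however, called both arms (2 of 2) as higher. Of all 408 tested miRNAs, edgeR called 85 as higher and DESeq2 75.

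Other miRNAs that follow signals to the cell went both ways. Of 9 listed stimulus-induced miRNAs 8 were tested, 2 were higher and 3 lower, with a median log2 change of -0.02 against -0.17 for all tested, where 17.4% were higher and 31.9% lower. The balance turned with the tool, to 3 higher and 2 lower by edgeR and 3 higher and 1 lower by DESeq2. Of all 408 tested miRNAs, edgeR called 85 higher and 101 lower, and DESeq2 75 higher and 72 lower. MiR-182-5p rose by 1.67 (limma adjusted p = 0.000522) and miR-134-5p, an activity-linked miRNA of neurons, by 0.80 (limma adjusted p = 0.00278) on the log2 scale. MiR-21-3p, miR-146b-5p and miR-222-3p were the lower calls by limma, at -1.04, -0.51 and -0.42. Of these miR-146b-5p did not pass by edgeR (adjusted p = 0.0564), and neither miR-146b-5p nor miR-222-3p passed by DESeq2 (adjusted p = 0.175 and 0.258). MiR-155-5p, an NF-κB target in immune cells, had 29.3 ± 1.34 RPM over the 3 Control libraries and 30.9 ± 1.53 over the 3 TGF-b1 libraries (SD) and did not pass (limma adjusted p = 0.630).

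Of 16 listed miRNAs linked to kidney fibrosis 12 were tested, 5 were higher and 5 lower, with a median of -0.03, where 49.3% of all tested miRNAs were called. Both edgeR and DESeq2 gave 6 higher and 5 lower, where they called 186 and 147 of all 408 tested miRNAs. The miR-29 family, known to repress collagen mRNAs, was split between the directions. Its most abundant member, miR-29a-3p, averaged 5188 ± 277 RPM over the 3 Control libraries and 6010 ± 394 over the 3 TGF-b1 libraries (SD) and was higher, while miR-29b-3p and miR-29c-3p, at 47.4 and 51.8 RPM in Control, were lower. The higher calls were miR-29a-3p, miR-192-5p, miR-194-5p, miR-382-5p and miR-433-3p, with log2 changes from 0.21 to 1.41. The lower calls were miR-29b-3p, miR-29c-3p and miR-200a-3p, miR-200b-3p and miR-429-3p of the epithelial miR-200 family, with log2 changes from -2.64 to -0.62. Of these miR-200b-3p and miR-429-3p passed the filter on low values only through their Control libraries. MiR-21-5p, the best known miRNA of fibrosis, stood at 15381 ± 558 RPM over the 3 Control libraries and 16920 ± 1668 over the 3 TGF-b1 libraries (SD) and did not pass by limma (adjusted p = 0.163), while edgeR and DESeq2 called it higher at log2 changes of 0.29 and 0.35 (adjusted p = 0.0129 and 0.0338).

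Because miR-132 is abundant in neurons, markers of other cell types were read beside the cluster. Of 5 neuronal markers listed 4 were tested. By limma none was higher and 3 were lower in TGF-b1, where 31.9% of all tested miRNAs were lower. By edgeR 2 were lower, as were 101 of all 408 tested miRNAs, and by DESeq2 1, as were 72 of the 408. The sum of the 5 ran from 331 to 387 RPM in Control and from 231 to 242 RPM in TGF-b1. Nearly all of that sum was miR-128-3p, which many other tissues also express. The neuron-specific miR-124-3p averaged 1.38 ± 0.329 RPM over the 3 Control libraries and 0.694 ± 0.298 over the 3 TGF-b1 libraries (SD). With 70 reads in Control and 39 in TGF-b1, it would not have passed the filter on its TGF-b1 libraries alone. Its call as lower is therefore partly fixed by the filter. MiR-9-5p went the other way, from a Control mean of 0.884 RPM to a TGF-b1 mean of 1.05. Its groups did not overlap, by 1.02 RPM in Control replicate 3 against 1.04 in TGF-b1 replicate 1. Of all tested miRNAs 20.8% were higher in TGF-b1 without overlap. Its log2 change of 0.13 did not pass (limma adjusted p = 0.428). The 5 epithelial markers summed to 22.2 to 25.4 RPM in Control and 1.67 to 2.53 RPM in TGF-b1. Of these miR-200c-3p and miR-141-3p had at most 2 reads in a group and were not tested. The 3 tested were called lower, as were 31.9% of all tested miRNAs. MiR-200b-3p (342 reads in Control, 34 in TGF-b1) and miR-429-3p (202 and 16) passed the filter only through their Control libraries. The count is therefore partly fixed by the filter. The 3 muscle markers summed to 3440 to 3646 RPM in Control and 3285 to 3465 RPM in TGF-b1, almost all of it miR-206-3p, and 0 of 2 tested passed by limma (0 had an unadjusted p under 0.05 and 0 passed by edgeR or DESeq2). Of the 5 mesenchymal markers 1 was higher (miR-145-5p, log2 change 0.92) and 2 were lower (miR-199a-3p and miR-199a-5p, -0.31 and -0.95), and edgeR and DESeq2 each called 1 higher and 1 lower. By limma 17.4% of all tested miRNAs were higher and 31.9% lower. Of the 408, edgeR called 85 higher and 101 lower, and DESeq2 75 higher and 72 lower. In bulk RNA, fewer cells of a type and less RNA per cell cannot be told apart, and the part of these markers in the results on the cluster was not tested.

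**Figure D5:**
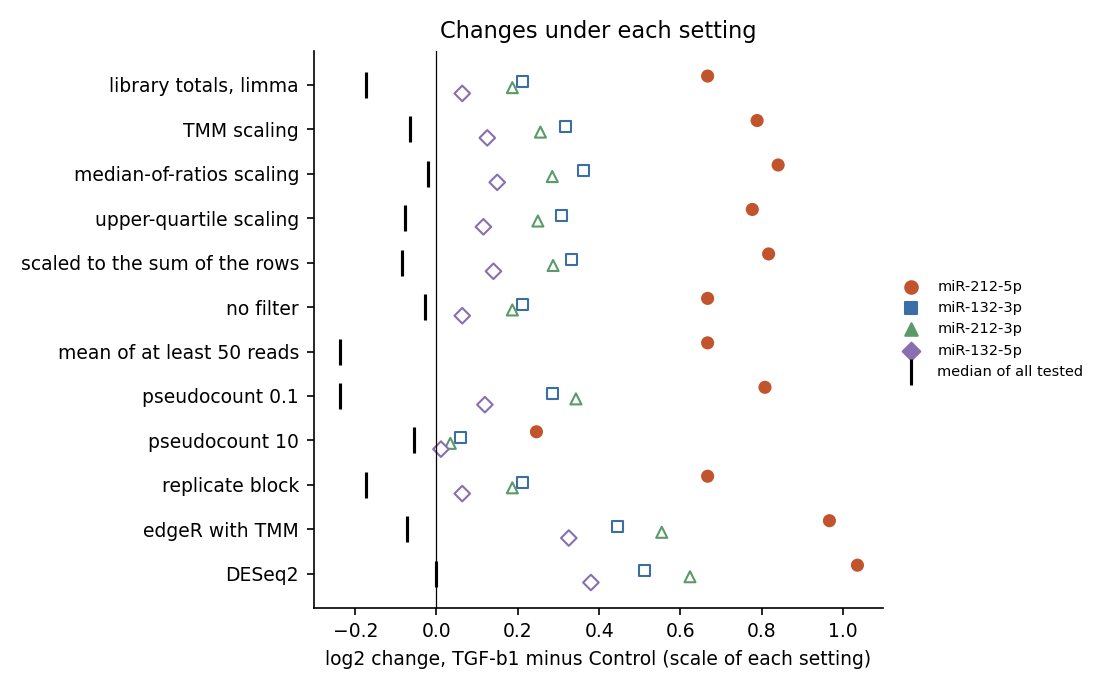
Log2 change of each member (TGF-b1 minus Control, on the scale of each setting) under 12 settings, filled where the adjusted p was under 0.05 and open where it was not, with the median of all tested miRNAs as a black tick. MiR-212-5p is filled in each setting, from 0.25 with a pseudocount of 10 to 1.04 with DESeq2, and the other members are open wherever they were tested.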

How the data were processed

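Small RNA of 6 libraries was sequenced by the authors on an Illumina HiSeq instrument. Per the methods of the study, adaptors, low-quality reads and reads under the length limit were removed and the rest compared with known miRNAs of miRBase using Bowtie. The methods do not say how reads matching several miRNAs were counted. Some rows hold the same values in every library, such as miR-486-5p and miR-3107-5p. Reads were thus counted in full in several rows, and some of the tested rows repeat others. The sum of the rows is too high for that reason, by an amount not known. The deposited table gives 778 miRNAs in a unit its header calls TPM, used here as RPM, since the authors divided reads by the library total without scaling by length. Totals were recovered as the integer that makes the values whole reads (100% within 0.002 reads).

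Groups were compared on log2(RPM + 1) with limma 3.58.1 in R 4.3.3 (trended prior) and group as the only term, over the 408 miRNAs kept by filterByExpr of edgeR 4.0.16 (minimum count 10), with Benjamini-Hochberg adjustment and a threshold of 0.05. The count tests (edgeR with TMM and DESeq2 1.42.0) on recovered reads were alternatives, and they called 186 and 147 miRNAs against 201. Single ratios and shares were compared with exact permutation tests (scipy 1.17.1). Log2 ratios of arms and between hairpins were taken after adding 1 RPM to both values, except where another pseudocount is named. The planned minimum of 1 RPM in both arms was reached by neither hairpin of the cluster, so arm ratios were tested over the 103 hairpins with both arms in the filtered set, a choice made after seeing the data. The permutation test planned for the sum of the members was left out. Chi-square per degree of freedom between libraries of a group was 43.2 to 135, and no library was a copy of another. The fits were tested on simulated reads.

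Named miRNAs are the 4 members, the 3 closest in profile to miR-132-3p, those within 1 Mb of the cluster, and the lists of stimulus-induced, kidney fibrosis and cell type (mesenchymal, neuronal, endothelial, blood, epithelial, muscle) miRNAs. The 3 closest to miR-212-5p were added after their values were seen. Members and lists were chosen with earlier results of these data known. Alternatives were 4 scalings, 2 filters, 2 pseudocounts, a replicate block, each library left out, and both count tests.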

Additional observations from a re-analysis of the deposited data

How the results depend on the processing

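MiR-212-5p kept its direction and its side of the adjusted p threshold under all 17 alternatives run for it. Its log2 change was past 1 with DESeq2 alone (1.04). The other members kept their direction and their side under all that could test them except miR-132-5p, whose direction turned without TGF-b1 replicate 1. A mean of at least 50 reads left only miR-212-5p of the 4. The sum of the members differed by 3.30 RPM, against 4.18 with TMM and 5.43 with the listed reads as the total. The difference in the log2 ratio of miR-132-3p to miR-212-3p (0.024) reversed to -0.058 with a pseudocount of 0.1. Leaving out each library gave log2 changes of 0.58 to 0.74 for miR-212-5p, 0.17 to 0.25 for miR-132-3p, 0.058 to 0.25 for miR-212-3p and -0.014 to 0.17 for miR-132-5p, differences of 3.09 to 3.51 RPM for the sum, -0.079 to 0.16 for the ratio of miR-132-3p to miR-212-3p, 0.38 to 0.56 for that of miR-212-5p to miR-132-3p, 0.0018 to 0.26 for the arms of miR-132 and -0.63 to -0.38 for those of miR-212, and 162 to 208 called miRNAs. Same-numbered libraries did not pair (correlations of deviations -0.084, -0.21 and -0.34, and 0 of 6 libraries correlated best with their own number). With the replicate block miR-212-5p had a log2 change of 0.67 (limma adjusted p = 0.0267), 176 miRNAs were called against 201, and no call of a member changed. With 9 to 24 reads a library, miR-212-3p and miR-132-5p are limited by depth.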
